A study of Mus musculus with 6 samples.

Results

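Cell cycle genes were followed in whole tibia as 34 genes, 16 that act in DNA synthesis (S phase) and 18 that act in G2 phase and mitosis (G2/M), of 56748 genes in the count tables. They were chosen by name, and each of the 34 symbols matched 1 gene identifier. RNA came from tibiae of female mice 12 weeks old, in 3 samples heterozygous for Col1a1, a gene of type I collagen (genotype Col1a1+/-), and in 3 samples of wild-type genotype. The marrow was flushed out before the bone was frozen and ground, and polyadenylated RNA was sequenced. No treatment is given for any of the 6 samples, and nothing states whether each came from a separate animal, so each p-value reflects the spread among these libraries, which may be technical. Each library held between 26830644 and 32379684 counted reads, and the 34 genes took 0.0805% to 0.163% of them. Levels are given as CPM, the reads of a gene relative to the library total after TMM scaling, which sets libraries to a common level for most genes. Col1a1 itself lay between 52880 and 61150 CPM in Col1a1+/- and between 36810 and 61350 CPM in wild type, so the level of the targeted gene did not check the labels.

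A dividing cell copies its DNA in S phase and parts the copies in mitosis. The MCM genes encode the ring-shaped helicase that is loaded on replication origins with the help of Cdc6 and switched on with Cdc45 and the GINS complex. Cyclins E, A and B act in turn with cyclin-dependent kinases, and the aurora and polo-like kinases, the spindle checkpoint and the motor proteins of the kinesin family then drive mitosis. In a flushed long bone, blood cell precursors left in the bone, growth plate chondrocytes and osteoblast precursors are among the cells known to divide. Since the RNA is from bulk tissue, fewer dividing cells and less RNA of these genes per cell cannot be told apart.

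The classes differ in the letters of their promoters, which the choice of genes did not use. Genes of S phase are classically bound by E2F factors, and genes of G2/M by a repressor and activator complex at the cell cycle homology region (CHR), often beside a CCAAT box. Windows of 300 bases, from 250 before to 50 after the annotated start, were at hand from RefSeq (GRCm38.p6) for 27 of the 34 genes. Ccne2, Mcm4, Exo1, Gins2, Ccna2, Aurkb and Kif20a had none. The E2F letters searched were TTTCCCGC, TTTGGCGC, TTTCGCGC and TTTGCCGC, on both strands, and a match may overlap another. They stood in 5 of 12 S-phase genes, Cdc6, Mcm3, Mcm5, Mcm6 and Mcm7, and in 1 of 15 G2/M genes, Cdk1. Of all 27025 genes with a window, 2.6% held them (2.26% of windows). The printed stretches are the 180 bases before the start of 3 of these S-phase genes, with the E2F letters in capitals. They are Mcm5 (chr8:75109329-75109508, plus strand), Mcm6 (chr1:128359706-128359885, minus strand) and Cdc6 (chr11:98907971-98908150, plus strand), all on GRCm38.p6.
Mcm5: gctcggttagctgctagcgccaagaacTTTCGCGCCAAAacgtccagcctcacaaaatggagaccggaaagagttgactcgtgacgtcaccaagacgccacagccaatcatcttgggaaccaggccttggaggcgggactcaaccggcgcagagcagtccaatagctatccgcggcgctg
Mcm6: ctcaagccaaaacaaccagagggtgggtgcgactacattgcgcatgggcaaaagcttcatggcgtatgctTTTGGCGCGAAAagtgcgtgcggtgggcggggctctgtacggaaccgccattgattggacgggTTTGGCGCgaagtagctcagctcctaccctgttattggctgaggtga
Cdc6: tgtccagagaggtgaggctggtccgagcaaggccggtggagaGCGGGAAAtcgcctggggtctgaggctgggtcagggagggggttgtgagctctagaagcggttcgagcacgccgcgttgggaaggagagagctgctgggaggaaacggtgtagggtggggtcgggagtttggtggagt

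The CHR letters, TTTGAA or TTCGAA on either strand, stood in 12 of 15 G2/M genes and in 3 of 12 S-phase genes (Cdc45, Mcm2 and Mcm7), against 21.7% of all genes with a window (19.2% of windows). In 11 G2/M genes a match began within 50 bases of the start, a range set after the positions were seen. That held for 1 S-phase gene, Cdc45, and for 6.12% of all genes. The CCAAT letters, also on both strands, stood in 14 of 15 G2/M genes and 9 of 12 S-phase genes, against 41.1% of all genes, so they part the classes less than the other letters. All 12 G2/M genes with CHR letters also held CCAAT letters, a pair found in 8.61% of all genes. A match describes the letters only, and no factor binding was measured. The same 180 bases are printed for 4 G2/M genes, with the CHR letters in capitals. They are Cdk1 (chr10:69352913-69353092, minus strand), Cdc20 (chr4:118437344-118437523, minus strand), Kif11 (chr19:37376202-37376381, plus strand) and Top2a (chr11:99024190-99024369, minus strand), all on GRCm38.p6.
Cdk1: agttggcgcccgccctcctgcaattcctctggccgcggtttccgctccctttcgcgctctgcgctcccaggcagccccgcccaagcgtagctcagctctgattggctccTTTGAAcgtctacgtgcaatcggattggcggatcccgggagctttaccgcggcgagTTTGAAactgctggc
Cdc20: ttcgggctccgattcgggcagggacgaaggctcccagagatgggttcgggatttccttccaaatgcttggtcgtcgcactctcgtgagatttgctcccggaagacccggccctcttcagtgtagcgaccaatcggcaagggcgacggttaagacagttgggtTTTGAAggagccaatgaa
Kif11: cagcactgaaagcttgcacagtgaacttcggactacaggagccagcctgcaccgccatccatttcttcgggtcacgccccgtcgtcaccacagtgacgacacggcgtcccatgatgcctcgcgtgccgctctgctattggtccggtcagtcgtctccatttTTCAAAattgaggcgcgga
Top2a: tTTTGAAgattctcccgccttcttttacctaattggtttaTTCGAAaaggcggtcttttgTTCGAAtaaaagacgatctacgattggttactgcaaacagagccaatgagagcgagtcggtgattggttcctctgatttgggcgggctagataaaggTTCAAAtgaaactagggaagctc

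**Figure D1:**
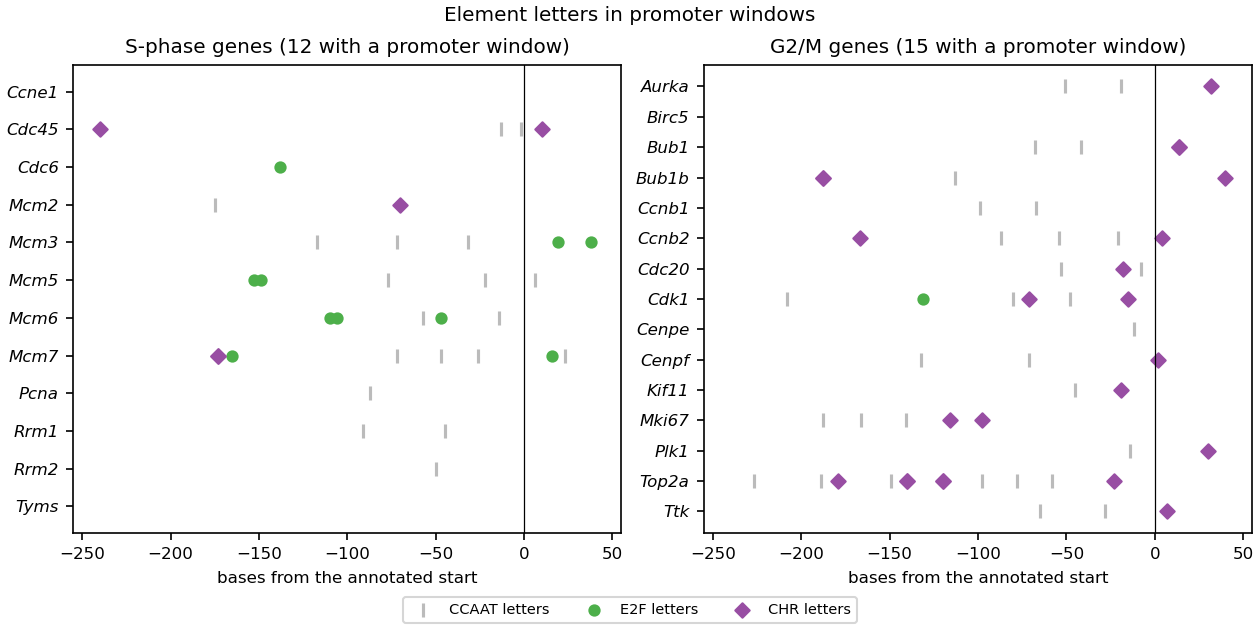
Positions of the first base of each match to the E2F, CHR and CCAAT letters, in bases from the annotated start (0), for 12 S-phase genes on the left and 15 G2/M genes on the right, with both windows of Mcm7 drawn on 1 line. CHR letters stand in 12 of the 15 G2/M genes, 11 of them within 50 bases of the start, whereas E2F letters stand in 5 of the 12 S-phase genes.

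All 34 genes were detected in every library, and all passed the filter on low counts. Levels per kilobase of exon are CPM over the summed exons of all isoforms. They are written FPKM here, although each mate of a pair was counted, so they are reads and not fragments. The highest level over 6 libraries was that of Pcna, the sliding clamp of the replication fork, at 30.9 FPKM. Next came Rrm2, a subunit of the enzyme that makes deoxynucleotides, at 18.2 FPKM, cyclin B2 (Ccnb2) at 17.5 FPKM and the proliferation marker Mki67 at 15.6 FPKM. The lowest was the exonuclease gene Exo1 at 0.435 FPKM, with 84 to 164 reads per library, and Mki67 had 3560 to 7136 reads. The median was 5.77 FPKM in the S-phase class and 5.9 FPKM in the G2/M class. These levels are uncertain for genes whose exons lie partly under a gene on the other strand, since reads shared by genes were not counted. That concerned 67.3% of the exon length of Gins2, 29.3% of Kif20a, 20.8% of Pcna, 17.4% of Ccne2 and 12.5% of Ccna2. Shorter overlaps on the other strand covered 7.25% of Mcm7, 7.09% of Plk1, 5.96% of Cdc45 and 2.84% of Cdc20. Pseudogene copies were annotated for Pcna, Tyms, Ccnb1 and Ccnb2, and reads that fit a copy as well would be lost from these genes.

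The 6 subunits of the MCM helicase kept similar proportions in all libraries. Of the summed MCM level per kilobase, Mcm7 took the largest share in 5 of 6 libraries, at 21.3% to 26.2%, and Mcm2 the smallest in all 6, at 9.51% to 11.4%. In wild-type replicate 1 the shares of Mcm5 and Mcm7 were both 20.4%. The share of Mcm6 was 19.6% ± 0.68 (SD, n = 3) in Col1a1+/- and 18.1% ± 0.34 (SD, n = 3) in wild type, at 18.9% to 20.3% and 17.7% to 18.4%, so the genotypes did not overlap. The difference was not tested, and the other subunits overlapped. In CPM, 28.6% of all tested genes had no overlap either. Mcm5 took 16.1% ± 0.97 in Col1a1+/- and 17.5% ± 2.68 in wild type. Outside wild-type replicate 1 the share of Mcm5 lay between 15.2% and 17.2%. The ratio of the ribonucleotide reductase subunits, Rrm2 to Rrm1 CPM, was 0.854 ± 0.069 in Col1a1+/- and 0.835 ± 0.0486 in wild type. Cyclin B1 (Ccnb1) to its kinase partner Cdk1 was 0.83 ± 0.154 and 0.795 ± 0.13 in CPM, and cyclin E1 (Ccne1) to cyclin E2 (Ccne2) 0.858 ± 0.119 and 0.898 ± 0.0301. The genotypes overlapped in each of these ratios. The means differed by less than 1 SD of either group, except for cyclin E1 to E2, where the difference exceeded the wild-type SD but not that of Col1a1+/-.

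Wild-type replicate 1 had the highest level of all 34 genes, which held for 18.2% of all tested genes. Mki67 (chromosome 7, GRCm39) stood at 129, 132.2 and 173 CPM in Col1a1+/- replicates 1, 2 and 3 and at 221.2, 160 and 123.3 CPM in wild-type replicates 1, 2 and 3. The other wild-type libraries thus lay within or just below the range of Col1a1+/-. Kif11, the motor that pushes the spindle poles apart, stood at 26, 30.4 and 32.5 CPM in Col1a1+/- and at 52, 26.1 and 22.6 CPM in wild type, in the same order. Its level in wild-type replicate 1 was 2.14 times the mean of the other wild-type libraries, the highest such ratio among the members. The checkpoint kinase Bub1 (2.02 times), cyclin B1 (2.03 times) and the GINS subunit gene Gins2 (1.94 times) came near it. The lowest ratios were those of Pcna (1.18 times) and Mcm7 (1.19 times). The median ratio was 1.62 over the G2/M genes and 1.39 over the S-phase genes, and 0.949 over all tested genes. At the other end, wild-type replicate 3 had the lowest level of 25 of the 34 genes, 16 of 18 G2/M genes and 9 of 16 S-phase genes. Wild type therefore held both the highest and, for most members, the lowest library. How many of all tested genes were lowest in wild-type replicate 3 was not counted.

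**Figure D2:**
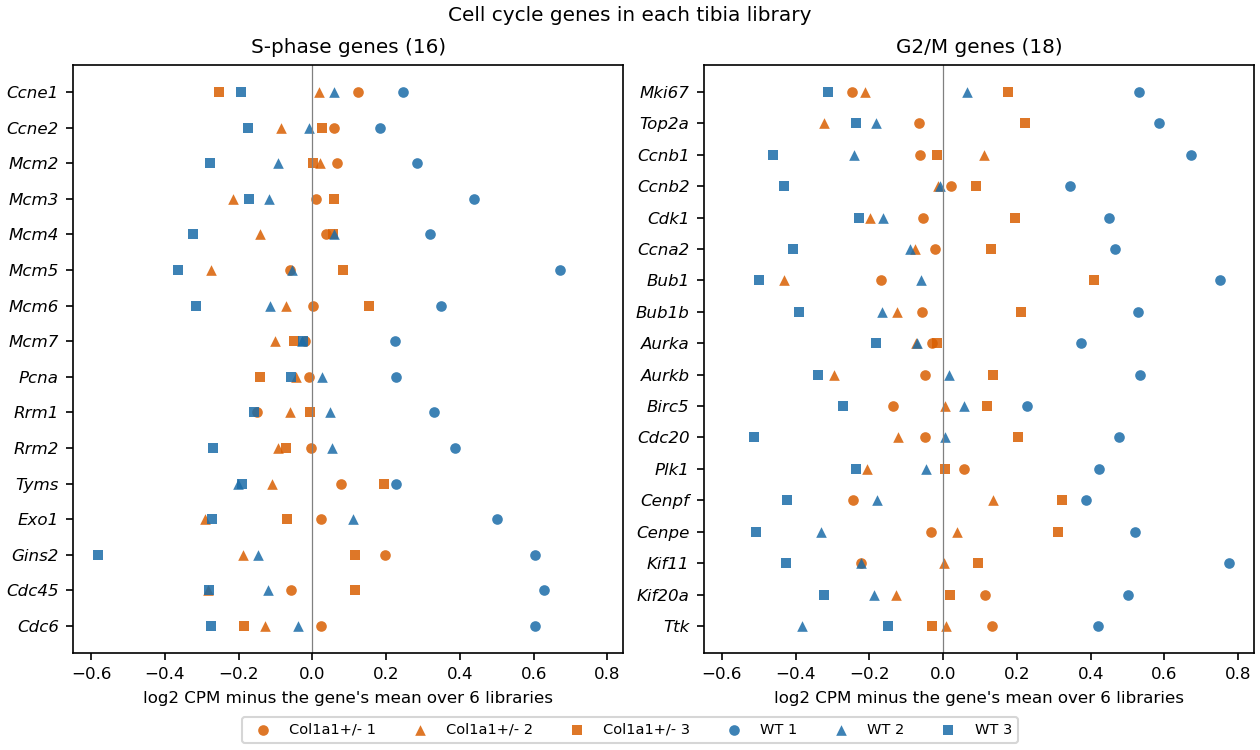
Log2 CPM of each gene minus its mean over the 6 libraries, with 1 symbol per library, for the S-phase genes on the left and the G2/M genes on the right. Wild-type replicate 1 (blue circles) is the rightmost symbol in all 34 rows, and wild-type replicate 3 (blue squares) is the leftmost in 25.

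None of the 34 genes passed the test between the genotypes. By edgeR's quasi-likelihood test with Benjamini-Hochberg adjustment over 18514 genes, 0 members passed an adjusted p of 0.05 (smallest 0.512, for Pcna), where 4.34% of all tested genes passed. No member reached an unadjusted p under 0.05, which 22.8% of all tested genes did, and DESeq2 and limma-voom also gave 0 at either threshold. The genotypes overlapped for all 34 genes, whereas 28.6% of all tested genes had no overlap. Log2 fold changes of Col1a1+/- over wild type lay between -0.25 (Exo1, SE 0.26) and 0.14 (Cenpe, SE 0.26). They were below 0 for 26 of 34 members and 50.9% of all tested genes, with medians of -0.12 for S-phase genes, -0.05 for G2/M genes and -0.01 for all tested genes. The 95% intervals bound the change more usefully than the missed threshold. The interval stayed within a 2-fold change in either direction for all 34 genes, and within 1.5-fold for 21, 11 of them S-phase genes. It was narrowest for Mcm7 (-0.36 to 0.12) and Pcna (-0.38 to 0.11) and widest for Bub1 (-0.98 to 0.62) on the log2 scale. These bounds hold for TMM scaling with no covariate. Scaling on osteocyte markers, which moves the median of all genes to -0.695, put 5 estimates past 2-fold (lowest -1.05, Bub1), and so did the muscle covariate (lowest -1.61, Bub1).

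The direction turned when wild-type replicate 1 was left out. That library was the highest for all 34 genes, so leaving it out lowers the wild-type mean of each. The rise of the estimates thus follows from the values that singled it out. Leaving out wild-type replicate 2 or 3 instead left 4 and 1 of 34 log2 fold changes above 0, against 48.4% and 49.4% of all genes. Without wild-type replicate 1, 32 of 34 were above 0, against 53.7% of all genes then tested. The medians were then 0.13 for S-phase genes, 0.28 for G2/M genes and 0.04 for all genes. The exceptions were Pcna (-0.02) and Exo1 (-0.01). The only call was Cenpe, a kinesin that carries chromosomes to the spindle equator, whose log2 fold change was then 0.56 with an SE of 0.15 (edgeR, adjusted p = 0.0473), where 3.12% of all genes were called higher. Cenpe stood at 19.1, 20.1 and 24.3 CPM in Col1a1+/- and at 28, 15.5 and 13.8 CPM in wild type. Unadjusted p-values under 0.05 were also found for Mcm2, Mcm6, Ccnb1, Cenpf and Kif11, with adjusted p between 0.104 and 0.169 by edgeR. With Cenpe these were 6 of 34 members, or 17.6%, below the 26.8% of all genes at that threshold. All 3 Col1a1+/- libraries stood above wild-type replicates 2 and 3 for 9 members, 6 of them G2/M genes, as for 20.8% of all genes. Among them was Mcm6, at 52.6, 50 and 58.4 CPM against 48.5 and 42.2 CPM. With all 6 libraries the log2 fold changes were 0.03 (SE 0.17) for Mcm6 and 0.14 (SE 0.26) for Cenpe.

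**Figure D3:**
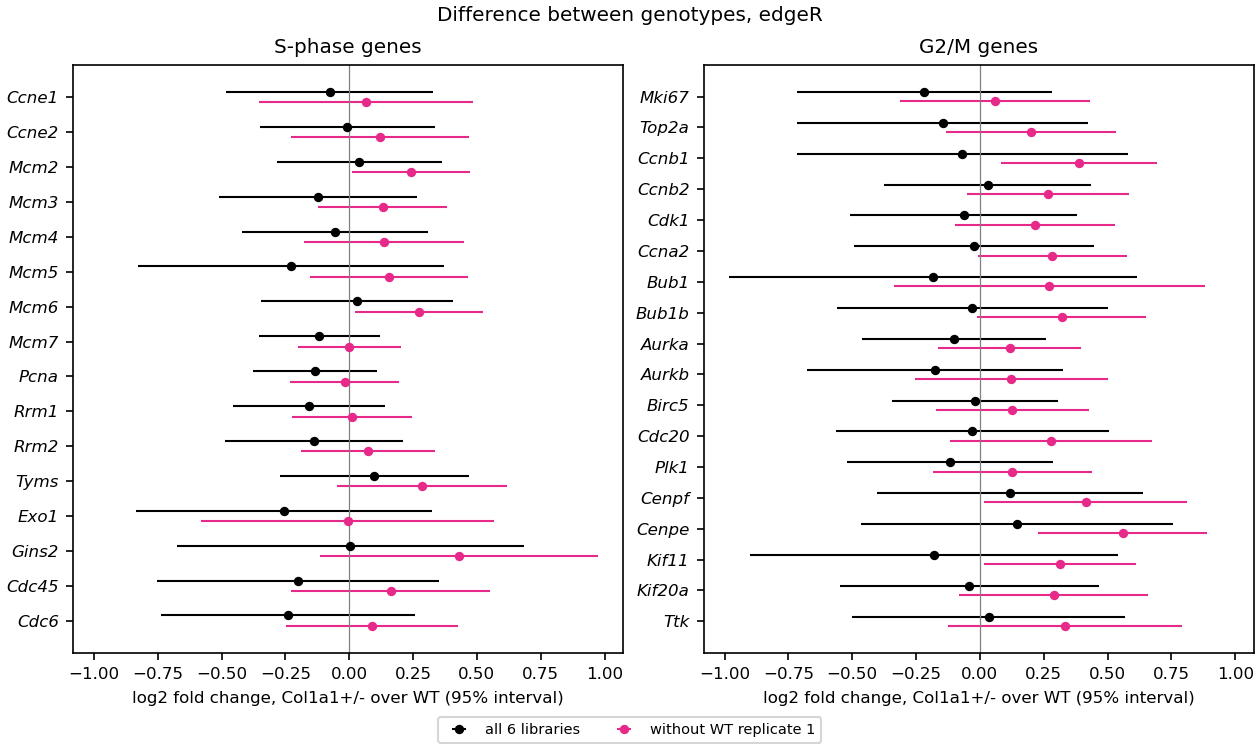
Log2 fold change of Col1a1+/- over wild type with its 95% interval by edgeR, for each S-phase gene on the left and each G2/M gene on the right, from all 6 libraries (black) and without wild-type replicate 1 (pink). With all libraries every interval spans 0 and stays within -1 and 1. Without wild-type replicate 1, the highest library for all 34 genes, 32 of 34 estimates lie above 0.

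S-phase and G2/M genes were then compared within each library. The mean log2 CPM of the S-phase genes minus that of the G2/M genes was 0.08, -0.02 and -0.14 in Col1a1+/- replicates 1, 2 and 3 and -0.11, 0.09 and 0.11 in wild-type replicates 1, 2 and 3. The group means were -0.03 ± 0.11 for Col1a1+/- and 0.03 ± 0.12 for wild type (SD, n = 3), which differed by -0.05, less than the spread between libraries. Without wild-type replicate 1 the difference was -0.12, about the size of that spread. As summed CPM, the S-phase to G2/M ratio was 0.904 ± 0.0858 in Col1a1+/- and 0.913 ± 0.0917 in wild type. The 2 libraries with the most cell cycle RNA had the lowest share of S-phase genes in it. The 34 genes summed to 1476 CPM in wild-type replicate 1 and 1155 CPM in Col1a1+/- replicate 3, with ratios of 0.812 and 0.808. Wild-type replicate 3 had the smallest sum, 903 CPM, and the highest ratio, 0.992. The other 3 libraries, at 998 to 1051 CPM, had ratios of 0.931 to 0.972.

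G2/M genes ranged more widely among the libraries than S-phase genes did, a difference that was not tested. The summed level ran from 453 to 815 CPM over the 18 G2/M genes and from 450 to 662 CPM over the 16 S-phase genes. Col1a1+/- replicate 3 was the highest of its genotype for 14 of 18 G2/M genes and 7 of 16 S-phase genes. Its level was 1.63 times the mean of the other Col1a1+/- libraries for Bub1, 1.33 times for Top2a, the topoisomerase that untangles sister chromatids, and 1.33 times for Mki67. For cyclin E1 it was 0.799 times that mean and for Pcna 0.923 times. Top2a stood at 84.9, 71 and 103.6 CPM in Col1a1+/- and 133.2, 78.3 and 75.4 CPM in wild type. Pcna stood at 73.5, 71.8 and 67.1 CPM and at 86.6, 75.4 and 71.1 CPM. Top2a thus varied widely within both genotypes, and Pcna little outside wild-type replicate 1.

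**Figure D4:**
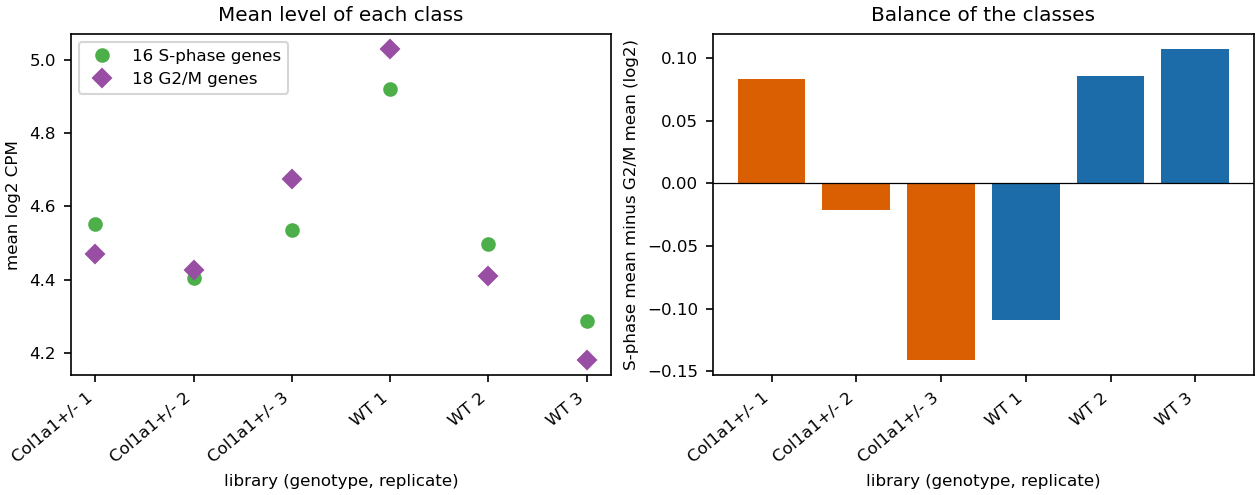
Mean log2 CPM of the 16 S-phase and 18 G2/M genes in each library on the left, and the difference of these means on the right, with Col1a1+/- in orange and wild type in blue. The difference is lowest in Col1a1+/- replicate 3 (-0.14) and wild-type replicate 1 (-0.11), where the G2/M genes are highest.

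Other genes of the cell cycle gave 1 call among 115, where 4.34% of all tested genes were called. Of 38 further replication genes and 51 further mitosis genes 0 passed the threshold by edgeR, with medians of -0.06 and -0.05. An unadjusted p under 0.05 was reached by 1 of each, and by 22.8% of all tested genes. By DESeq2 and limma-voom these lists also held no call. Wild-type replicate 1 was the highest library for 26 of the replication and 42 of the mitosis genes, and for 18.2% of all tested genes. The replication gene with the smallest p was Rpa1, a subunit of the protein that coats single-stranded DNA (log2 fold change -0.36, adjusted p = 0.0811 by edgeR). Among the mitosis genes it was securin (Pttg1), the inhibitor of the enzyme that parts sister chromatids, at -0.63 (adjusted p = 0.137 by edgeR). Pttg1 did not follow the members across libraries, with 25.4, 26.4 and 18.4 CPM in Col1a1+/- and 25.6, 38.6 and 44.4 CPM in wild type. Without wild-type replicate 1 it was called lower, at -0.79 (adjusted p = 0.0224 by edgeR).

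Of 19 regulators of G1 phase 1 was called lower, where 4.34% of all tested genes were called in either direction. It was E2f6, a member of the E2F family that acts as a repressor. Its level was 37.9, 51.1 and 34.1 CPM in Col1a1+/- and 62.7, 82.6 and 97.9 CPM in wild type (log2 fold change -0.98, SE 0.20, adjusted p = 0.0402 by edgeR). The genotypes did not overlap, as for 28.6% of all tested genes. The call of E2f6 was lost without Col1a1+/- replicate 1, Col1a1+/- replicate 3, wild-type replicate 2 or wild-type replicate 3, with values of -0.97 to -0.83. It was also lost with the replicate block (-0.98, adjusted p = 0.0589 by edgeR) and with the erythroid precursor level as a covariate (-0.98, adjusted p = 0.0777 by edgeR). The summed skeletal muscle markers put the 6 libraries in the same order as E2f6, at 20140, 38030 and 17740 CPM in Col1a1+/- and 54200, 65420 and 85760 CPM in wild type. With the mean log2 CPM of these markers as a covariate the log2 fold change of E2f6 was -0.07 (adjusted p = 0.971 by edgeR). The summed muscle level did not overlap between the genotypes, and the log2 fold changes of all 20 markers were below 0. This fit therefore cannot tell muscle from genotype, and it called 0 of all genes. Whether muscle content is behind the call was not tested. Cyclin D1 (Ccnd1) stood at 0.40 and its partner kinase Cdk4 at 0.31 (adjusted p = 0.206 and 0.131 by edgeR). E2f2, an activator of the E2F family, stood at -0.45 (adjusted p = 0.204 by edgeR) and, like the members, was highest in wild-type replicate 1, at 78.8 CPM against 39.3 to 56.9 CPM. Of 7 inhibitors of cyclin-dependent kinases 0 passed. At an unadjusted p under 0.05, reached by 22.8% of all tested genes, stood 2 of these inhibitors. These were Cdkn1a, the p53 target p21, at 0.38 (adjusted p = 0.132 by edgeR) and Cdkn2d at -0.58 (adjusted p = 0.0544 by edgeR). DESeq2 called Cdkn2d lower and limma-voom neither.

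Markers of neutrophil precursors were highest in the same library as the members. The summed level of 7 such genes, among them Elane and Fcnb, was 252 to 411 CPM in Col1a1+/- and 441 to 1651 CPM in wild type, and all 7 were highest in wild-type replicate 1, where the sum was 3.72 times the mean of the other wild-type libraries. The part of these cells in the result was not tested. The 8 markers of later neutrophils stood at 3.36 times. None of the 15 was at 0 in any library. The summed precursor level did not overlap between the genotypes and was by far the highest in wild-type replicate 1. The covariate used was the mean log2 CPM of the 7 genes, not their sum. All 7 log2 fold changes were below 0, so a fit with that covariate cannot fully part the precursor level from genotype. Nor is that fit independent of leaving wild-type replicate 1 out. With the neutrophil precursor level as a covariate all 34 members had a log2 fold change above 0, against 50.3% of all genes. The medians were 0.23 for S-phase and 0.39 for G2/M genes. No member passed in that comparison (smallest adjusted p = 0.0986 by edgeR, for Cenpe). An unadjusted p under 0.05 was reached by 7 members, or 20.6%, and by 23.7% of all genes. The lists did not move together in every library. Col1a1+/- replicate 3 had the second highest G2/M level and the lowest neutrophil precursor level of the 6, and wild-type replicate 3 had the lowest G2/M level with 441 CPM of neutrophil precursor RNA.

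Markers of other cells were then compared across the libraries. Markers of erythroid precursors (10 genes) were highest in wild-type replicate 2, at 554 CPM against 354 to 469 CPM in the other libraries, and none was highest in wild-type replicate 1. Markers of B-lineage precursors (11 genes) stood at 135 to 148 CPM in Col1a1+/- and 165 to 177 CPM in wild type. Vpreb1, part of the surrogate light chain, had a log2 fold change of -0.84 (adjusted p = 0.0719 by edgeR) among them. The 5 blood stem and progenitor markers summed to 121 to 132 CPM, and 3 of them were highest in wild-type replicate 1. Kit, the stem cell factor receptor, stood at 26 CPM there and at 15.9 to 17.9 CPM in the other libraries. Growth plate chondrocyte markers were called higher in Col1a1+/- for 6 of 13 genes and osteoblast markers for 6 of 8. Over all, 265 of 18514 tested genes were called higher. The chondrocyte markers summed to 3391 to 5471 CPM against 1675 to 2426 CPM, and the osteoblast markers to 9342 to 10090 CPM against 4191 to 5603 CPM. Without Col1a1+/- replicate 1, or without wild-type replicate 3, 0 of all genes were called. Acan, the main cartilage proteoglycan, had a log2 fold change of 1.48 (adjusted p = 0.0218 by edgeR). Ibsp, a sialoprotein of bone matrix, had one of 1.09 (adjusted p = 0.0253 by edgeR). The cell cycle genes showed no such separation of the genotypes. Muscle RNA was lower in Col1a1+/-, with 7 of 20 markers called lower, where 538 of 18514 tested genes were. The summed muscle level did not overlap between the genotypes. All 20 log2 fold changes were also below 0, so a fit with the markers' mean log2 CPM as a covariate cannot tell muscle from genotype. With that covariate all 34 members were below 0, against 49.3% of all genes, with medians of -0.53 for S-phase and -0.68 for G2/M genes. That fit gave 0 calls among all genes by edgeR (9 members, or 26.5%, and 6.2% of all genes at an unadjusted p under 0.05).

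**Figure D5:**
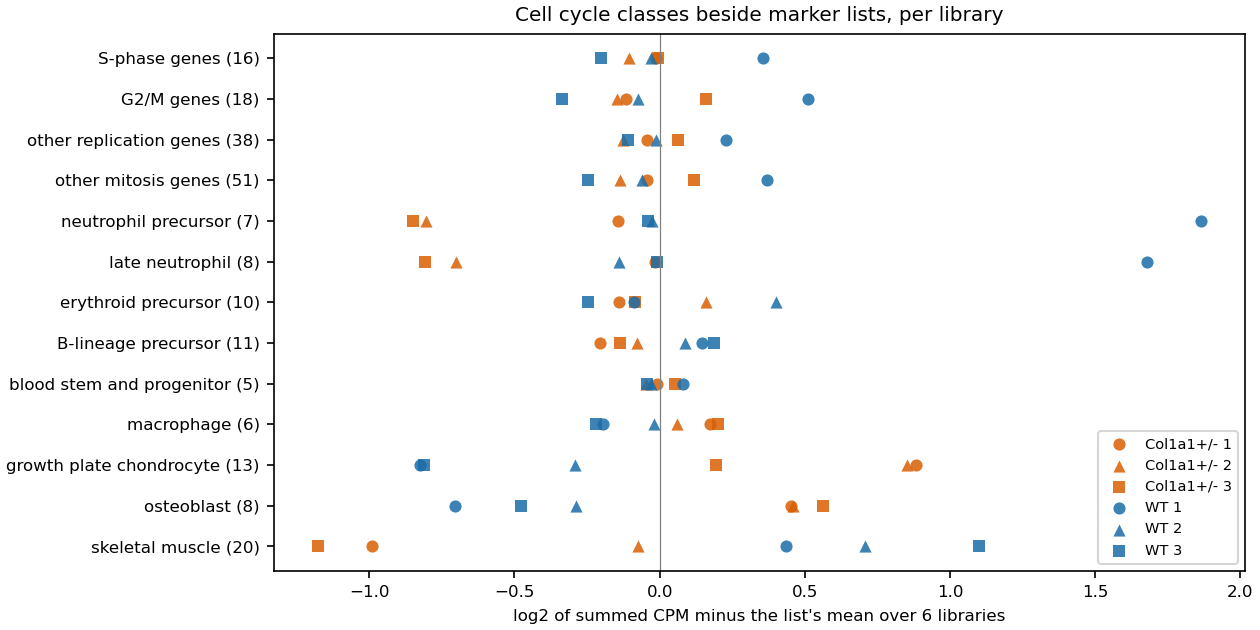
Log2 of the summed CPM of each gene list minus its mean over the 6 libraries, with the number of genes in brackets and 1 symbol per library. The S-phase, G2/M and neutrophil lists are highest in wild-type replicate 1 (blue circles), and the erythroid list is highest in wild-type replicate 2. The neutrophil precursor, B-lineage, macrophage, chondrocyte, osteoblast and muscle lists separate the genotypes.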

How the data were processed

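For each of 6 tibia libraries the authors deposited 1 table of unnormalized counts, with 1 row per gene. Reads were trimmed, aligned and sorted with Trimmomatic 0.39, HISAT2 2.2.1 and SAMtools 1.20, per the submitters' processing notes. They were counted with featureCounts 2.0.3 on Ensembl release 107 gene models of GRCm39, per the file headers, with no strand set and each mate of a pair counted. Reads that map to several places or genes were left out by default.

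Symbols were matched by gene identifier for 52073 of 56748 genes (91.8%). Genes were kept by filterByExpr (18514 genes), scaled by TMM and compared with edgeR 4.0.16 in R 4.3.3 (quasi-likelihood F test, robust, genotype as the only term, two-sided). The SE is the absolute log2 fold change over the square root of F. Log2 CPM used a prior count of 2. Alternatives used DESeq2 1.42.0, limma 3.58.1, other scalings, covariates and left-out libraries, and the scripts were tested on simulated data. Each covariate was the mean log2 CPM of a marker list. The members and gene lists were chosen with earlier results of these data known. All members are named; of each other list, at most the 2 tested genes with the smallest p in each direction. Promoter letters were read from RefSeq windows on GRCm38.p6, and no coordinate was converted between builds. Within a genotype, libraries differed by 25.7 to 87.6 times the counting variance of independent reads, so none was a copy of another. Mates of a pair were counted separately and are not independent, so these multiples run too high.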

Additional observations from a re-analysis of the deposited data

How the results depend on the processing

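No member was called with other size factors, library totals, osteocyte scaling, no filter, DESeq2, limma-voom, the replicate block or any covariate. The number of called members was 0 to 1 with 1 library left out, for all members and for the G2/M genes, the 1 being Cenpe without wild-type replicate 1, and 0 for the S-phase genes throughout. With 1 library left out the median of the S-phase genes ran from -0.218 to 0.126 and that of the G2/M genes from -0.208 to 0.275, above 0 for both classes only without wild-type replicate 1, of these 6 (without Col1a1+/- replicate 2 the G2/M median was 0.004). The medians were -0.833 and -0.842 with osteocyte scaling, which lowers the median of all genes to -0.695, then -0.525 and -0.681 with the muscle covariate and 0.226 and 0.393 with the neutrophil precursor covariate. The difference of S-phase and G2/M genes between genotypes ran from -0.123 (without wild-type replicate 1) to 0.003 (without Col1a1+/- replicate 3) over its alternatives, where the SD between libraries was 0.112 in Col1a1+/- and 0.119 in wild type.

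Over all genes 803 were called, against 1327 with library totals, 1472 without a filter, 2256 by DESeq2, 126 with the replicate block, 0, 7 and 1356 with the muscle, erythroid and neutrophil covariates, and 0 to 1766 with 1 library left out (0 without Col1a1+/- replicate 1 or wild-type replicate 3, with 3275 and 3239 at an unadjusted p under 0.05). Calls were higher in Col1a1+/- for 33% of genes with TMM, 44.3% with library totals and 0.2% with osteocyte scaling. The other cell cycle lists had 1 call, 2 with library totals, without a filter, by DESeq2 and with the neutrophil covariate, 0 with the replicate block, muscle or erythroid covariate, and 0 to 2 with 1 library left out. The cause of these changes was not tested. No pairing by sample number was seen, though this check cannot exclude one. Deviations of same-numbered samples correlated at 0.107, 0.041 and -0.122, and those of differently numbered samples at -0.198 to 0.194. The S-phase and G2/M medians were -0.107 and -0.005 with the replicate block. Counting error is small beside the spread between libraries except for low genes such as Exo1.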
